A study of Mus musculus with 126 samples.

Results

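Genes of the Nodal signalling pathway were followed through RNA-seq of mouse embryonic stem cells: the ligands Nodal and Gdf3, the coreceptor Tdgf1, and the secreted inhibitors Lefty1, Lefty2 and Cer1. The 6 are among 23420 genes in the count table and were taken by name. Lefty1 and Lefty2 were picked because their RNA was very low in TSA-treated TKO cells, and the other 4 because they belong to the same pathway. The contrast of TSA with DMSO in TKO cells therefore chose the genes, so their values in it are given as a description with no test. The wild type libraries played no part in that contrast.

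The cells were J1 wild type ES cells and J1 cells of the genotype Dnmt1-/-, Dnmt3a-/-, Dnmt3b-/-, called TKO, which carry null alleles of the DNA methyltransferases that write and maintain CpG methylation. Each line received 5 ng/µl of Trichostatin A (TSA), an inhibitor of histone deacetylases, or the control solvent, 0.0033% DMSO, for 36 h, which makes 4 groups of 2 libraries. All 4 groups were grown on gelatin in medium with serum and LIF. The sample titles name no separate clones within a genotype. A difference between TKO and wild type therefore cannot be told apart from other differences between the lines. The series holds 126 samples, of which the 8 RNA libraries are analysed here. With 2 libraries a group, a permutation of labels could not give a p below 0.333, so p-values come from a model over the whole table.

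Library totals were 13280631 to 15542527 counts. The 12 listed ES cell markers, Pou5f1, Sox2 and Nanog among them, were present in every library. Their summed level, in CPM (counts scaled to library size by TMM), was 3249 to 3555 under DMSO and 1814 to 1999 under TSA in wild type cells, and 4116 to 4601 under DMSO and 2142 to 2343 under TSA in TKO cells. With TSA, 10 of the 12 fell in wild type and 9 of 12 in TKO, where 25.9% and 27.9% of all tested genes fell. Of the targeted genes, Dnmt1 was at 360 to 464 CPM over the wild type libraries and 123 to 134 over the TKO libraries, Dnmt3a at 152 to 236 against 25.9 to 39.1, and Dnmt3b at 343 to 595 against 43.6 to 76.1. RNA from these loci remained, and whether the counted exons lie within the deleted parts is not given in the sources used here.

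Nodal is a ligand of the TGF-beta superfamily. Together with activin type I and type II receptors and the coreceptor Tdgf1 (Cripto) it leads to phosphorylation of Smad2 and Smad3, which join Smad4 and reach DNA with partners such as Foxh1. Lefty1 and Lefty2 bind the ligand or its coreceptor and block signalling, and they are themselves transcribed in response to it, so an active pathway makes its own inhibitors. In ES cells the pathway works close to the pluripotency network, and in the early embryo it patterns the germ layers and the left-right axis.

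For those of the 6 genes with an entry, the upstream sequence is shown, in lower case from 5′ to 3′ on the gene's own strand. It covers the 250 bases before the annotated start, from RefSeq on GRCm38.p6. Capitals mark matches to the FOXH1 core AATNNACA or the SMAD box CAGAC, on either strand (reverse complements TGTNNATT and GTCTG). The octamer ATGCAAAT (ATTTGCAT) was searched as well. Lefty1, Lefty2 and Gdf3 are named only. The windows are chr10:61417722-61417971 (+) for Nodal, chr9:110946159-110946408 (-) for Tdgf1 and chr4:82885152-82885401 (-) for Cer1.
Nodal: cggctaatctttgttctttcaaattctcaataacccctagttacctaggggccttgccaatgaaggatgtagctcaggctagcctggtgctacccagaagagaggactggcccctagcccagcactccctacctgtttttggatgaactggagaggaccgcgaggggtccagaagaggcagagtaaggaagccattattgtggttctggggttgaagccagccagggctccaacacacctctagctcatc
Tdgf1: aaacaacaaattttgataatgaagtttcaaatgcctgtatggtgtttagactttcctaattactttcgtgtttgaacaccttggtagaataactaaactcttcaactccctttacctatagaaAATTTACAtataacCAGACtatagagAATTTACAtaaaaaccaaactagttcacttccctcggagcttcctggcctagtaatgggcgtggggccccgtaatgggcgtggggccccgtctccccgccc
Cer1: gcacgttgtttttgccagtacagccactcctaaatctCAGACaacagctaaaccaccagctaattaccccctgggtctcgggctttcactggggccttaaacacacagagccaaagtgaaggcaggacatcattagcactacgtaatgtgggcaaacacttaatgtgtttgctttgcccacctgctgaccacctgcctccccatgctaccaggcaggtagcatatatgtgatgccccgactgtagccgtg

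In the Tdgf1 window the FOXH1 core matched 127 and 101 bases before the start, with a SMAD box between them at 113 bases. The Cer1 window held a SMAD box 213 bases before the start, and the Nodal window held none of the 3 motifs. Over the 32851 windows of the table, 10.9% held a FOXH1 core, 42.2% a SMAD box and 1.6% the octamer, and 1.12% held at least 2 FOXH1 cores. The windows held 3 CpG for Nodal, 7 for Tdgf1 and 5 for Cer1, beside a median of 6. These are matches of letters in a window, not measured binding.

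The RNA of the ligand Nodal did not follow that of its inhibitors. Nodal (chr10:61417972-61425337, + strand, 3 exons, mm10) is the signal that receptors on the same or nearby cells read. It stood at 94.3 and 78.6 CPM under DMSO and 109 and 122 under TSA in wild type cells, and 102 and 113 under DMSO and 94.9 and 124 under TSA in TKO cells. Both wild type TSA libraries were above both wild type DMSO libraries, whereas the TKO TSA libraries fell on either side of the TKO DMSO libraries. In wild type Nodal rose 1.33-fold with TSA, from 86.4 ± 11.1 to 115 ± 8.75 CPM (SD, n = 2), a log2 fold change of 0.42 ± 0.14 (SE; adjusted p = 0.0253, edgeR). The call was lost without wild type DMSO replicate 2 (log2 0.28, adjusted p = 0.155) and without wild type TSA replicate 2 (log2 0.33, adjusted p = 0.139). In TKO the means were 108 ± 8.22 CPM in DMSO and 109 ± 20.5 in TSA, a log2 difference of 0.03.

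Gdf3, a related ligand that acts with Tdgf1 and is abundant in ES cells, was lower with TSA in both genotypes. The gene (chr6:122605403-122610071, - strand, 2 exons) had 184 and 149 CPM under DMSO and 36.1 and 26.7 under TSA in wild type cells, and 209 and 161 under DMSO and 25.9 and 20.6 under TSA in TKO cells. No TSA library came near a DMSO library. In wild type Gdf3 fell 5.31-fold (log2 -2.41 ± 0.18 SE, adjusted p = 1.00e-05). The TKO means were 7.96-fold lower with TSA, a log2 difference of -2.99. Thus the 2 ligands of the set went opposite ways in wild type cells.

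Tdgf1, the GPI-anchored coreceptor that lets Nodal and Gdf3 use activin receptors, had the highest mean level of the 6 in every group, although Nodal was above it in TKO TSA replicate 2. The gene (chr9:110939608-110946158, - strand, 6 exons) had 625 and 763 CPM under DMSO and 390 and 381 under TSA in wild type cells, and 719 and 685 under DMSO and 161 and 90.7 under TSA in TKO cells. The 4 DMSO libraries overlapped between genotypes, and the TKO TSA libraries lay below all others. In wild type Tdgf1 fell 1.80-fold with TSA (log2 -0.85 ± 0.20 SE, adjusted p = 0.00435). The TKO means were 5.58-fold lower, a log2 difference of -2.48. Processed copies of Tdgf1 are known in the genome, and how reads that map to several places were counted is not given in the sources used here, so its level is uncertain to that extent.

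The inhibitors Lefty1 and Lefty2 lie 35936 bases apart on chromosome 1, in the same direction. Apart from Cer1, which was near the limit of detection, they had the lowest share of their DMSO level left under TSA in the set. In TKO cells they were picked for this, so their place there is no finding. Lefty1 (chr1:180935039-180938401, + strand, 4 exons) had 358 and 316 CPM under DMSO and 21.2 and 7.68 under TSA in wild type cells, and 390 and 334 under DMSO and 5.21 and 1.44 under TSA in TKO cells. Lefty2 (chr1:180893119-180899102, + strand, 4 exons) had 243 and 337 CPM under DMSO and 24.1 and 7.54 under TSA in wild type cells, and 594 and 562 under DMSO and 7.71 and 1.32 under TSA in TKO cells. All TSA libraries of both genotypes were far under all DMSO libraries, and the 2 libraries of each TSA group differed from each other by a larger ratio than those of any DMSO group.

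In wild type Lefty1 fell 23.3-fold with TSA (log2 -4.53 ± 0.39 SE, adjusted p = 1.63e-05). Lefty2 fell 18.3-fold in the same comparison (log2 -4.18 ± 0.49 SE, adjusted p = 7.21e-05). In TKO cells, the contrast that chose them, the means were 109-fold lower for Lefty1 and 128-fold lower for Lefty2. Pairing each TKO TSA library with each TKO DMSO library gave 64.2-fold to 270-fold for Lefty1 and 72.9-fold to 450-fold for Lefty2. The RNA was still counted in every TSA library: Lefty1 had 347 and 113 counts in wild type and 77 and 23 in TKO, and Lefty2 had 395 and 111 counts in wild type and 114 and 21 in TKO.

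Lefty1 and Lefty2 are similar copies, so the division of reads between them is uncertain. Their sum does not depend on it: it was 601 and 653 CPM under DMSO and 45.3 and 15.2 under TSA in wild type cells, and 983 and 896 under DMSO and 12.9 and 2.76 under TSA in TKO cells. Counted as 1 gene, the sum fell by 4.36 on the log2 scale with TSA in wild type (adjusted p = 5.86e-05). The sources used here do not say whether reads that map to both copies were counted. The level of the sum is uncertain to that extent.

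Cer1, a secreted antagonist made by anterior endoderm in the embryo, was near the limit of detection. The gene (chr4:82881751-82885151, - strand, 2 exons) had 0 and 1 counts under DMSO and 0 and 0 under TSA in wild type cells, and 4 and 2 under DMSO and 2 and 0 under TSA in TKO cells. A count of 0 allows up to 3 counts, or 0.193 to 0.226 CPM at these depths, by counting error alone. Cer1 did not pass the filter on low counts and has no test, so 5 of the 6 genes were tested.

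**Figure D1:**
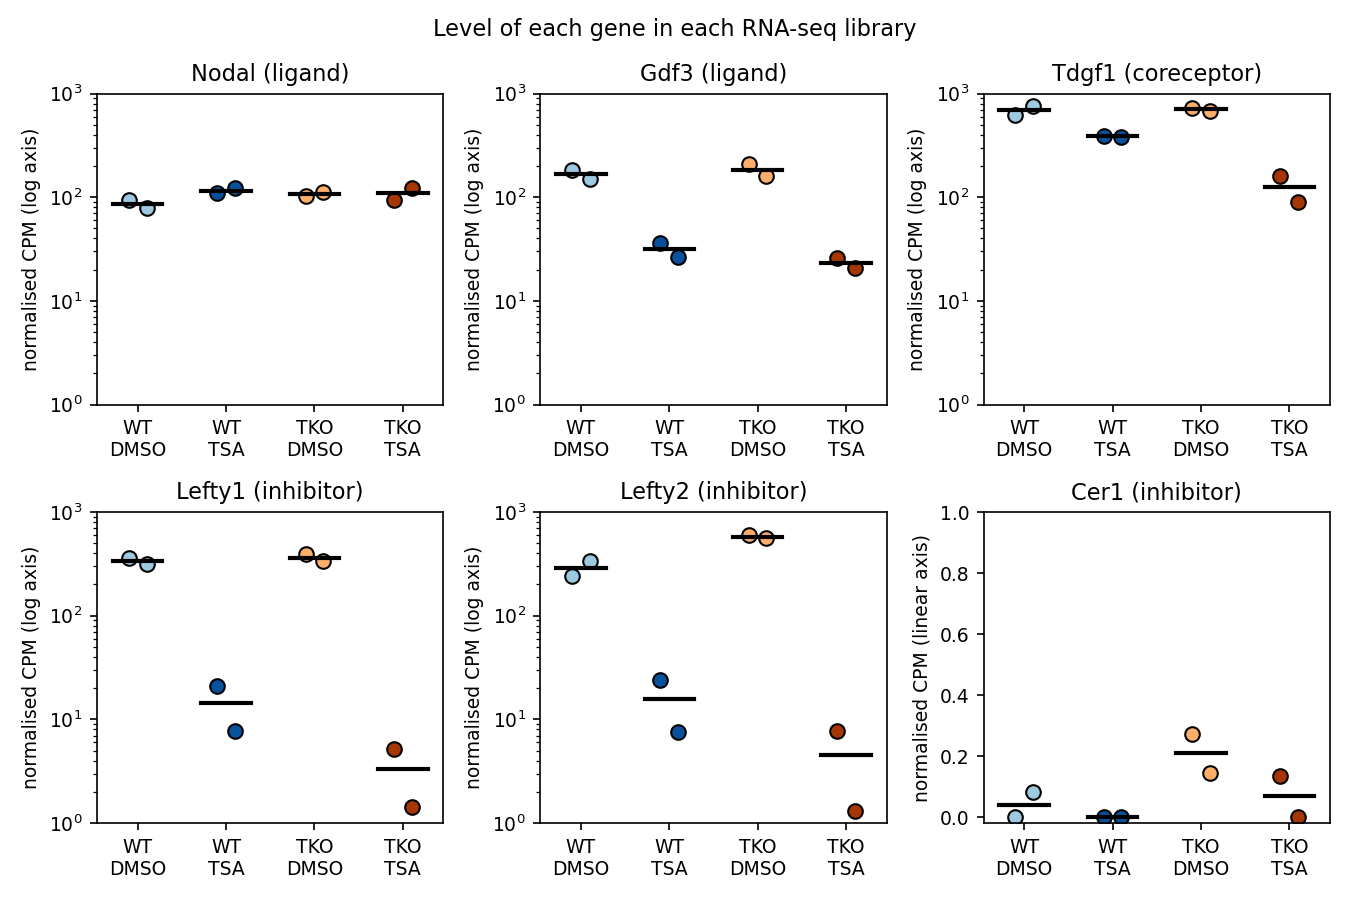
Level of each of the 6 genes in each library, in TMM-normalised CPM (log axis, except the linear axis for Cer1), by group. Each point is 1 library and each bar the mean of 2. Nodal stays between 78.6 and 124 CPM, while Lefty1 and Lefty2 go from between 243 and 594 CPM in DMSO to between 1.32 and 24.1 CPM in TSA.

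All 5 tested genes passed the threshold for the TSA effect in wild type, 1 higher and 4 lower. Over all 15822 tested genes, 52.8% passed it, 27% higher and 25.9% lower with a median log2 fold change of 0.01, so passing was common and the count alone does not set the 5 apart. In TKO cells 58.7% of all genes passed for the TSA effect, 30.8% higher and 27.9% lower. That contrast chose the genes, so no count of them is given for it.

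TSA treatment also moved genes of several cell types, and in bulk RNA a smaller share of cells of a type cannot be told apart from less RNA per cell. The ES marker Pou5f1 fell by 1.16 on the log2 scale in wild type (adjusted p = 7.62e-05) and by 1.43 in TKO. Summed trophoblast markers (6 genes) went from 480 to 735 CPM in wild type DMSO to 1133 to 1255 in wild type TSA, where 6 of 6 rose, and from 56.4 to 81.5 in TKO DMSO to 120 to 184 in TKO TSA, where 4 of 6 rose. Mesenchymal markers (8 genes) were at 236 to 461, 284 to 490, 26.8 to 42.2 and 51.3 to 57.5 CPM in the same order of groups. Primitive endoderm markers (9 genes) were at 567 to 660, 575 to 583, 833 to 883 and 682 to 736 CPM. With TSA, 2 mesenchymal markers rose and 2 fell in wild type, and 6 rose and 0 fell in TKO. Of the primitive endoderm markers, 2 rose and 2 fell in each genotype. Of 7 epiblast or primitive streak markers, 0 rose and 2 fell in wild type, and 1 rose and 2 fell in TKO. The shares of all tested genes were 27% higher and 25.9% lower in wild type, and 30.8% and 27.9% in TKO. No listed marker of these cell types was at 0 in both libraries of any group. The part of these shifts in the changes of the Nodal pathway genes was not tested.

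Per kilobase of exon, which allows levels to be compared between genes, the order of the set was different under TSA. In wild type DMSO it ran Tdgf1 (360 ± 50.6 CPM per kb, SD, n = 2), Lefty1 (210 ± 18.7), Lefty2 (118 ± 27.1), Gdf3 (79.0 ± 11.7), Nodal (41.3 ± 5.31) and Cer1, and no neighbours in that order overlapped. In wild type TSA Nodal (55.1 ± 4.18 CPM per kb) came second after Tdgf1 (200 ± 3.08), above Gdf3 (14.9 ± 3.17), Lefty1 (9.00 ± 5.95) and Lefty2 (6.43 ± 4.76), and the last 3 overlapped their neighbours. In TKO DMSO Lefty2 (235 ± 9.00 CPM per kb) and Lefty1 (226 ± 24.5) overlapped, below Tdgf1 (364 ± 12.4) and above Gdf3 (87.7 ± 15.8) and Nodal (51.3 ± 3.92). In TKO TSA Tdgf1 (65.3 ± 25.8 CPM per kb) overlapped Nodal (52.3 ± 9.77), followed by Gdf3 (11.0 ± 1.78), Lefty1 (2.07 ± 1.66) and Lefty2 (1.83 ± 1.84), of which the last 2 overlapped.

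Among all tested genes, ranked by level per kilobase, Lefty1 stood above 98.2% in wild type DMSO, above 52.9% in wild type TSA, above 98.4% in TKO DMSO and above 26.2% in TKO TSA. Tdgf1 stood above 99.4% in both DMSO groups and still above 92.3% in TKO TSA. Nodal stood above 83.6% to 90.5% in the 4 groups.

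As a description of the balance between inhibitor and ligand RNA, the summed Lefty1 and Lefty2 level per kilobase was divided by that of Nodal in each library. The ratio was 7.15 and 8.90 under DMSO and 0.441 and 0.135 under TSA in wild type cells, and 9.97 and 8.07 under DMSO and 0.141 and 0.0243 under TSA in TKO cells. Inhibitor RNA exceeded Nodal RNA in all 4 DMSO libraries and was below it in all 4 TSA libraries. The doubt about reads that map to both Lefty genes applies to this ratio as well. The ratio of Lefty1 to Lefty2 per kilobase was 2.26 and 1.44 under DMSO and 1.35 and 1.56 under TSA in wild type cells, and 1.01 and 0.911 under DMSO and 1.04 and 1.68 under TSA in TKO cells. Lefty1 was thus above Lefty2 in both wild type DMSO libraries and about level with it in the TKO DMSO libraries.

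**Figure D2:**
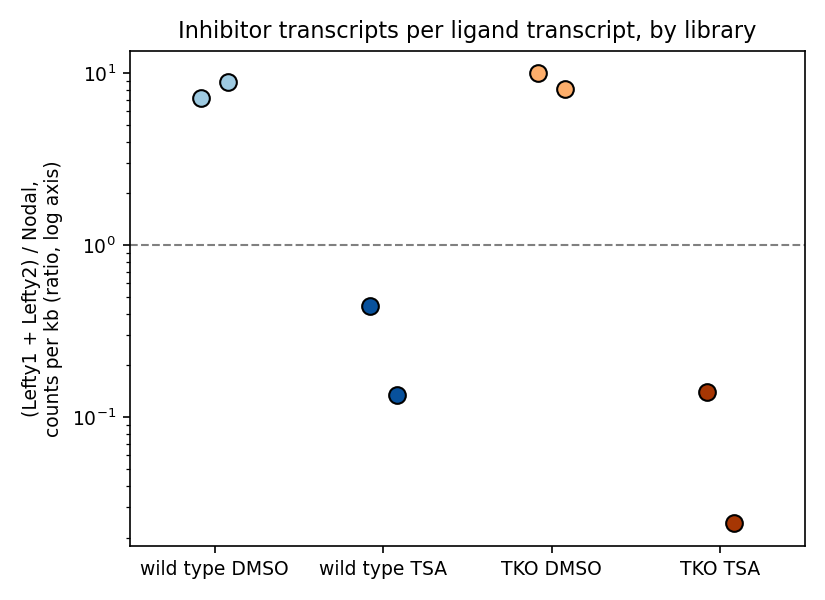
Ratio of the summed Lefty1 and Lefty2 level to the Nodal level, both per kilobase of exon, in each library (log axis). Each point is 1 library and the dashed line marks equal levels. The DMSO libraries lie between 7.15 and 9.97 and the TSA libraries between 0.0243 and 0.441.

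The largest difference between TKO and wild type in DMSO was that of Lefty2, with 578 ± 22.1 CPM in TKO cells against 290 ± 66.6 in wild type (SD, n = 2), a log2 difference of 0.99. Both TKO libraries were above both wild type libraries. For Lefty1 the log2 difference was 0.10 and for the sum of the pair 0.58, and the Lefty1 groups overlapped. The TKO DMSO libraries were part of the contrast in which Lefty1 and Lefty2 were picked, so these values are a description with no test.

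Nodal, Gdf3 and Tdgf1 were picked for their pathway and not for their values, though this comparison shares the TKO DMSO libraries with the TSA contrast in TKO and the wild type DMSO libraries with the TSA contrast in wild type. None of these 3 passed the threshold between TKO and wild type in DMSO with edgeR or DESeq2, where 20.4% of all tested genes passed with edgeR, 9.62% higher and 10.7% lower. Nodal alone of the 3 had an unadjusted p under 0.05. The log2 difference of Nodal between TKO and wild type in DMSO was 0.31 (95% interval 0.010 to 0.62, adjusted p = 0.137, edgeR), with no overlap between the groups. For Gdf3 it was 0.15 (-0.22 to 0.52, adjusted p = 0.577) and for Tdgf1 0.02 (-0.42 to 0.45, adjusted p = 0.968), and these groups overlapped. The intervals leave room for changes of the sizes given, so they do not show equal levels. Ranges of the other cell type markers in these same groups, given above, also differed between genotypes in DMSO: 5 of 8 mesenchymal and 4 of 6 trophoblast markers fell in TKO, and 6 of 12 ES and 6 of 9 primitive endoderm markers rose.

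The comparison of TKO with wild type under TSA uses the libraries which chose the genes and is described only. Tdgf1 was 3.06-fold lower in TKO (126 ± 49.6 against 385 ± 5.93 CPM, SD, n = 2), Lefty1 4.34-fold lower and Gdf3 1.35-fold lower, with no overlap. Lefty2 was 3.51-fold lower on average, yet its TKO libraries overlapped the wild type ones, and Nodal overlapped as well. Of all tested genes, 10% passed the edgeR threshold as higher and 8.38% as lower in this comparison. The share of all genes without overlap was not computed. With 2 libraries a group a permutation of labels gives no p below 0.333, so nothing is read from the lack of overlap. On the log2 scale the Lefty1 difference became -1.23 without wild type TSA replicate 1 and -3.33 without TKO TSA replicate 1, and the Lefty2 difference became -0.76 and -3.59. The log2 TSA effect was different in TKO from wild type by -0.39 for Nodal, -0.59 for Gdf3, -1.63 for Tdgf1, -2.25 for Lefty1 and -2.84 for Lefty2. Without wild type TSA replicate 1 the last 2 were -1.33 and -1.76, and without TKO TSA replicate 1 they were -3.43 and -4.59. Of all tested genes, 0.879% passed a test of that difference in the higher and 0.468% in the lower direction. The differences of the members were not tested, so these shares do not rank them.

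The rest of the pathway was read from a list of 46 genes in 7 roles, of which 45 were tested (Gdf1 had no counts). In wild type, TSA raised 7 and lowered 13 of the 45, which is 44.4% beside 52.8% over all genes, and their median log2 fold change was -0.13 beside 0.01. In TKO, TSA raised 11 and lowered 14, 55.6% beside 58.7%, with a median of -0.10 beside 0.04. Both shares are near or below those of all genes. With scaling by total counts only, the splits were 14 higher and 10 lower in wild type and 15 higher and 11 lower in TKO, so the balance of directions within the list depends on the scaling. Without TKO DMSO replicate 1, the number lowered in TKO was 9.

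Among the other ligands, 2 rose and 2 fell of 5 tested in wild type, and 2 rose and 1 fell in TKO. Of all tested genes, 27% rose and 25.9% fell in wild type, and 30.8% rose and 27.9% fell in TKO. Inhbb, which encodes the beta-B subunit of activin, was at 7.06 and 14.4 CPM under DMSO and 0.671 and 0.815 under TSA in wild type cells, and 12.8 and 20.7 under DMSO and 1.42 and 1.44 under TSA in TKO cells. It fell by 3.84 on the log2 scale with TSA in wild type (adjusted p = 6.39e-05) and fell by 3.54 in TKO (adjusted p = 2.53e-05). Tgfb1 and Tgfb3, which encode TGF-beta ligands that use other receptors, rose by 1.23 and 1.32 in wild type and by 1.42 and 1.69 in TKO, from low levels of 0.218 to 2.19 CPM in the DMSO libraries. Tgfb2, the other gene that fell in wild type (-0.59, adjusted p = 0.0297), had 0.16 in TKO (adjusted p = 0.723). The wild type call of Tgfb1 was lost without wild type DMSO replicate 1 (adjusted p = 0.0602) or wild type TSA replicate 2 (adjusted p = 0.0567).

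Of the convertases that cut the Nodal precursor, Pcsk6 (PACE4) fell with TSA by 1.10 on the log2 scale in wild type (adjusted p = 0.000145) and by 1.29 in TKO (adjusted p = 2.64e-05). Its level was 50.8 and 43.7 CPM under DMSO and 24.8 and 19.1 under TSA in wild type cells, and 81.4 and 83.4 under DMSO and 36.5 and 30.7 under TSA in TKO cells. Pcsk5 rose in TKO by 2.97 (adjusted p = 0.00027) and had 1.25 in wild type (adjusted p = 0.0553). Furin did not pass the threshold in either genotype (0.33 with adjusted p = 0.0706 and 0.37 with adjusted p = 0.0505), and it passed in both when scaled by total counts (adjusted p = 0.0107 and 0.0131) or by the upper quartile (adjusted p = 0.0155 and 0.0231) and without wild type DMSO replicate 1 (adjusted p = 0.0492 and 0.0341). In TKO it also passed with DESeq2 size factors (adjusted p = 0.0457), without wild type DMSO replicate 2 (adjusted p = 0.0397) and without TKO DMSO replicate 2 (adjusted p = 0.0302).

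Of the 8 receptor genes tested, 3 rose and 1 fell in each genotype. The shares of all tested genes were 27% higher and 25.9% lower in wild type, and 30.8% and 27.9% in TKO. Acvr1b (ALK4), the type I receptor that Nodal and activin use, had log2 differences of 0.23 in wild type (adjusted p = 0.148) and 0.12 in TKO (adjusted p = 0.437). With scaling by total counts its wild type difference passed (0.44, adjusted p = 0.0159). The type II receptor gene Acvr2b fell by 0.93 in wild type (adjusted p = 0.0011) and by 0.56 in TKO (adjusted p = 0.015), and the TKO call was lost with scaling by total counts (adjusted p = 0.0646), without TKO DMSO replicate 1 (adjusted p = 0.0980) and without TKO TSA replicate 1 (adjusted p = 0.132). Acvr1c (ALK7), an alternative type I receptor, rose in both: it had 0 and 0 counts under DMSO and 13 and 35 under TSA in wild type cells, and 2 and 1 under DMSO and 29 and 31 under TSA in TKO cells (adjusted p = 0.000936 and 0.00105). Tgfbr3, a coreceptor for TGF-beta ligands, rose by 1.08 and 1.40, and the receptor gene Tgfbr2 by 0.80 and 1.40.

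Of the 5 other antagonist genes, Fstl3, a follistatin-like binder of activin, rose in wild type (0.96, adjusted p = 0.00779, edgeR) and had 0.55 in TKO (adjusted p = 0.0576). In TKO the decoy receptor gene Bambi rose (1.04, adjusted p = 8.72e-05) and follistatin, Fst, fell (-0.60, adjusted p = 0.0498). In wild type Bambi had 0.31 (adjusted p = 0.077) and Fst -0.40 (adjusted p = 0.161). None of these 5 fell in wild type at this threshold, where 25.9% of all tested genes fell and 27% rose. In TKO 27.9% of all tested genes fell and 30.8% rose. Genes of the list named for a small count rather than for size (these 3, Tgfb2, Tgfbr2, Zfyve9, Ski, Smurf1, Drap1 and Tgif1) were chosen after their values were seen. Whether their TSA calls hold with other scalings or with libraries left out was not examined.

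Of the 5 intracellular transducers, 0 rose and 1 fell with TSA in wild type, and 2 rose and 1 fell in TKO. Among all tested genes, 27% rose and 25.9% fell in wild type, and 30.8% rose and 27.9% fell in TKO. Smad2 fell by 0.26 on the log2 scale in wild type (adjusted p = 0.0341) and by 0.42 in TKO (adjusted p = 0.00256). Its wild type call was lost with scaling by total counts (log2 -0.06, adjusted p = 0.617), with upper quartile scaling, with DESeq2, with only the libraries of the contrast, and without wild type DMSO replicate 2, either wild type TSA library or either TKO DMSO library (adjusted p = 0.0509 to 0.130 over these libraries). Smad3 rose by 0.58 in TKO (adjusted p = 0.00158) and had 0.07 in wild type (adjusted p = 0.611). Zfyve9, which encodes the Smad anchor SARA, rose by 0.34 in TKO (adjusted p = 0.021). Smad4, the shared partner, had -0.13 and -0.10 (adjusted p = 0.233 and 0.339), and its sign turned with scaling by total counts (0.070 and 0.044). Smad4 was at 125 to 151 CPM in all 8 libraries.

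Of the nuclear brakes on the pathway, 4 of 10 fell with TSA in wild type, 5 of 10 fell in TKO, and none rose. Over all tested genes, 25.9% fell and 27% rose in wild type, and 27.9% fell and 30.8% rose in TKO. The others besides those below were Ski, Smurf1 and Drap1 in wild type (-0.57, -0.51 and -0.48) and Smurf1 and Tgif1 in TKO (-0.57 and -0.30). Smad7, an inhibitory Smad that the pathway itself induces, was at 108 and 89.0 CPM under DMSO and 71.1 and 56.9 under TSA in wild type cells, and 107 and 104 under DMSO and 45.4 and 40.3 under TSA in TKO cells. It fell by 0.62 in wild type (adjusted p = 0.00236) and by 1.30 in TKO (adjusted p = 1.89e-05). Skil, a Smad corepressor and target, fell by 0.95 in TKO (adjusted p = 0.00319) and had -0.53 in wild type (adjusted p = 0.0568). Pmepa1, another induced inhibitor, fell by 1.02 in TKO (adjusted p = 0.00369) and had -0.60 in wild type (adjusted p = 0.056). In wild type Skil passed without the filter on low counts (adjusted p = 0.0156), with only the libraries of the contrast (adjusted p = 0.0165) and without wild type DMSO replicate 1 (adjusted p = 0.0282) or either TKO TSA library (adjusted p = 0.00587 and 0.00566). Pmepa1 passed there without the filter (adjusted p = 0.0482) and without wild type TSA replicate 1 (adjusted p = 0.0174).

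Of the 9 DNA partners and targets, 1 rose and 4 fell in wild type, and 2 rose and 4 fell in TKO. The shares of all tested genes were 27% higher and 25.9% lower in wild type, and 30.8% and 27.9% in TKO. Foxh1, the Smad partner that binds the core motif marked above, was at 83.9 and 69.3 CPM under DMSO and 27.0 and 24.7 under TSA in wild type cells, and 63.9 and 46.4 under DMSO and 35.2 and 35.7 under TSA in TKO cells. It fell by 1.56 in wild type (adjusted p = 3.45e-05) and by 0.64 in TKO (adjusted p = 0.00417), the latter lost without TKO DMSO replicate 1 (adjusted p = 0.0619). The difference between genotypes in this response was 0.93 and did not pass (adjusted p = 0.0666).

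The streak genes of the list went several ways. Fgf8, a growth factor, fell by 2.70 in wild type and by 2.08 in TKO from at most 2.43 CPM, but the wild type call was lost without wild type DMSO replicate 1 (adjusted p = 0.0839) and the TKO call without TKO DMSO replicate 1 or either TKO TSA library (adjusted p = 0.0507 to 0.191). Gsc, a homeobox gene of the organizer, fell by 1.34 in TKO (adjusted p = 0.0276), which was lost with DESeq2 (adjusted p = 0.200), without TKO DMSO replicate 1 and without either TKO TSA library (adjusted p = 0.0906 to 0.263). It had -0.08 in wild type. Lhx1, a LIM homeobox gene, rose in both genotypes, from 1 and 0 counts to 12 and 19 in wild type and from 2 and 1 to 14 and 21 in TKO (adjusted p = 0.00151 and 0.00169). The T-box gene T (Brachyury) fell by 1.50 in wild type (adjusted p = 0.00916), which was lost without wild type DMSO replicate 1 (adjusted p = 0.116) or wild type TSA replicate 2 (adjusted p = 0.0689), and had 0.99 in TKO (adjusted p = 0.284).

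Eomes, another T-box gene, differed between genotypes in its response. It was at 9.34 and 6.32 CPM under DMSO and 6.04 and 5.03 under TSA in wild type cells, and 2.39 and 2.84 under DMSO and 12.4 and 13.1 under TSA in TKO cells. It rose with TSA by 2.28 in TKO (adjusted p = 2.34e-05) and had -0.50 in wild type (adjusted p = 0.084), and the test of the difference itself gave 2.79 ± 0.34 (SE; adjusted p = 0.00533). It was the only 1 of the 45 genes to pass that test, which 1.35% of all tested genes passed.

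**Figure D3:**
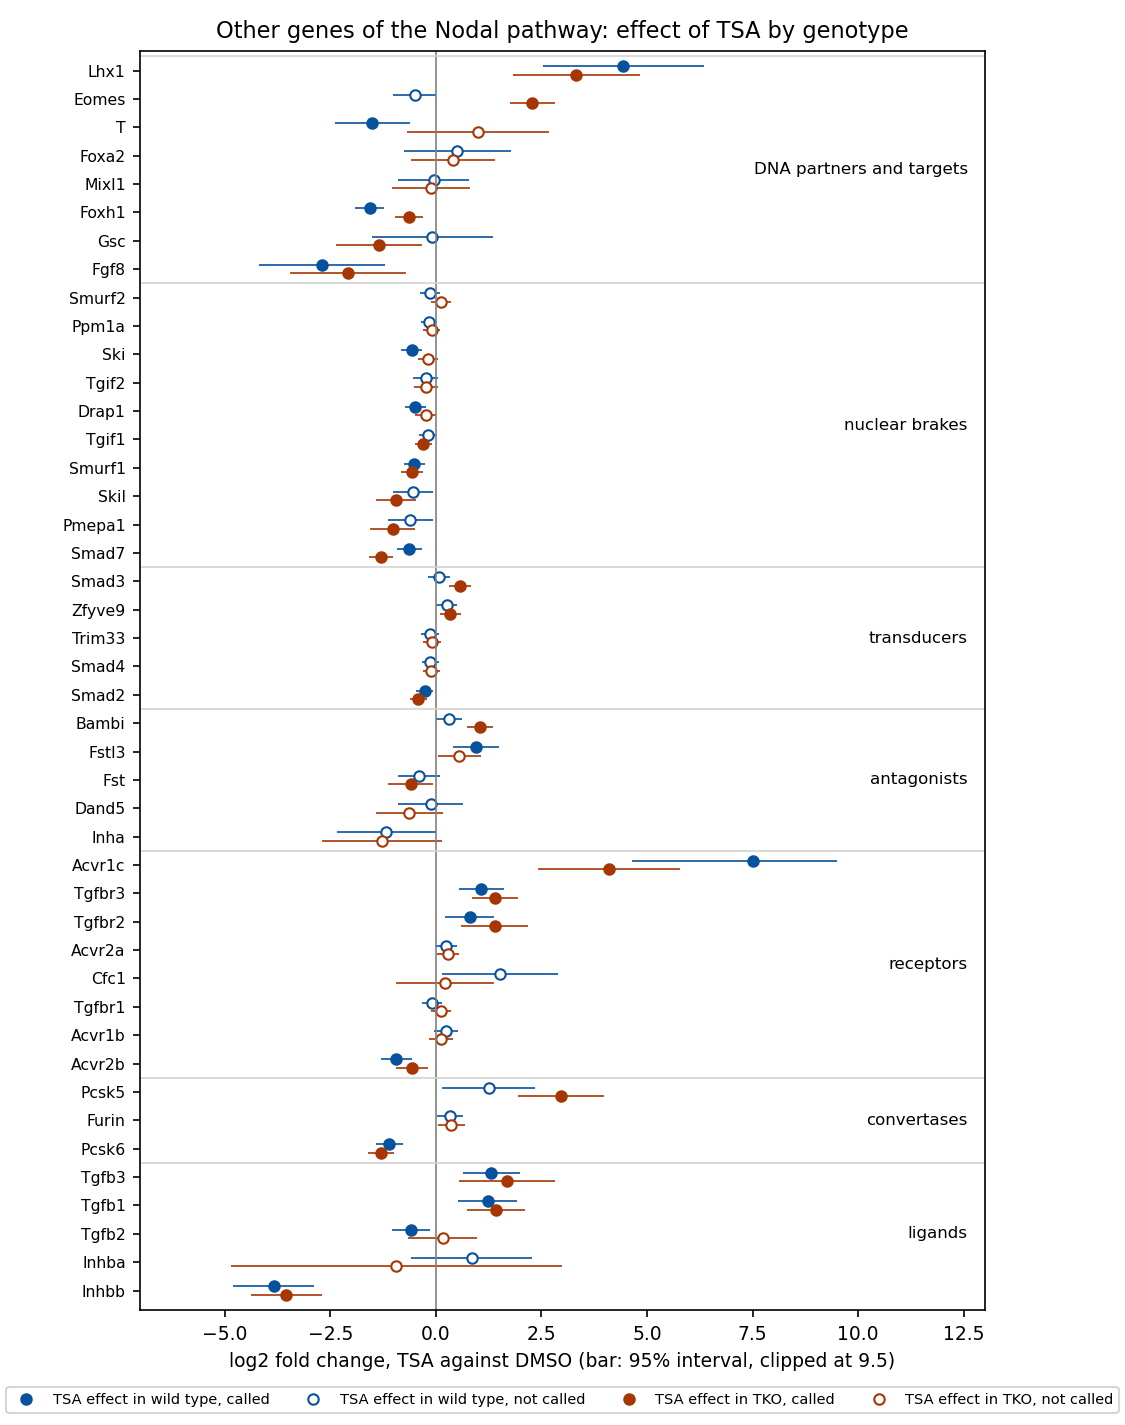
Log2 fold change with TSA in wild type (blue) and TKO (red) for the tested pathway genes reported here, grouped by role. Points are fitted values, bars 95% intervals, and filled points passed the threshold. Inhbb lies below -3 in both genotypes, the transducers lie near 0, the wild type point of Acvr1c is fitted against 0 counts and is no measure of size, and Eomes is the gene whose effects passed the test of a difference.

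Between genotypes in DMSO, 2 of the 45 genes were higher in TKO and 7 lower, 20% beside 20.4% of all genes. Gsc was 1.94 higher on the log2 scale (adjusted p = 0.0227), a call lost with DESeq2 (adjusted p = 0.148) and without either wild type DMSO library or TKO DMSO replicate 1 (adjusted p = 0.0723 to 0.189), and Pcsk6 was 0.80 higher (adjusted p = 0.00243). T was lower (log2 difference -4.62, adjusted p = 0.000319), and so were Tgfb2 (-4.05, adjusted p = 8.86e-06), Tgfb3 (-2.74, adjusted p = 0.00229), Tgfbr2 (-2.59, adjusted p = 0.000482) and Eomes (-1.59, adjusted p = 0.00149). Smad3 (-0.62, adjusted p = 0.00397) and Foxh1 (-0.47, adjusted p = 0.0456) were also lower.

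In TSA, 8 of the 45 were higher in TKO and 7 lower, 33.3% beside 18.4% of all genes (10% higher and 8.38% lower). The number passing was 5 without wild type TSA replicate 1, 9 without wild type TSA replicate 2 and 6 without TKO TSA replicate 2. In the same fits 941 of 16209, 2072 of 16204 and 1356 of 16149 genes passed in all. Tgfb2 (-3.30, adjusted p = 3.02e-05), Tgfb3 (-2.37, adjusted p = 0.000937) and Tgfbr2 (-1.99, adjusted p = 0.000937) were lower, as they were in DMSO. T was lower as well (-2.13, adjusted p = 0.0178), a call lost without wild type TSA replicate 1 (adjusted p = 0.177) or TKO TSA replicate 1 (adjusted p = 0.0934). Eomes was 1.20 higher (adjusted p = 0.00418). Pcsk5 was 1.46 higher (adjusted p = 0.0239), a call lost with DESeq2 (adjusted p = 0.0533), without wild type TSA replicate 1 (adjusted p = 0.195) and without TKO TSA replicate 2 (adjusted p = 0.219).

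Genes beside the 6 were examined to see whether whole neighbourhoods moved. Within 100 kb lay 24 other genes, of which 20 were tested. With TSA 5 rose and 7 fell in wild type and 6 rose and 6 fell in TKO, so 12 of 20 passed in each, a share near those of all genes. In TKO against wild type, 5 passed in DMSO and 5 in TSA, all higher in TKO, where 9.62% and 10% of all tested genes were higher. Without the library that mattered most the number was 2 in each (TKO DMSO replicate 2 and wild type TSA replicate 1), and 3 without wild type DMSO replicate 1 or TKO TSA replicate 2. None passed the test of a difference in response between genotypes with edgeR or DESeq2, and 3 had an unadjusted p under 0.05.

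Around the Lefty genes, 4 of the 5 tested neighbours fell with TSA in each genotype, all by less than the Lefty genes. Of all tested genes, 25.9% fell in wild type and 27.9% in TKO. Tmem63a, an ion channel gene 4116 bases from Lefty1, fell by 2.00 on the log2 scale in wild type (25.3 ± 5.13 to 6.31 ± 2.39 CPM, SD, n = 2; adjusted p = 0.000101, edgeR) and by 1.87 in TKO (adjusted p = 0.000104). Sde2 fell by 0.64 and 0.89, and the histone gene H3f3a by 0.76 and 0.87. Ephx1, an epoxide hydrolase gene, had 0.52 (adjusted p = 0.053) and 0.16 (adjusted p = 0.497).

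Beside Tdgf1, Lrrc2, whose nearest edge lies 5386 bases away, fell with TSA by 3.01 in wild type (35.8 ± 11.5 to 4.41 ± 0.667 CPM, SD, n = 2; adjusted p = 1.56e-05, edgeR) and by 3.87 in TKO (68.7 ± 3.69 to 4.70 ± 1.58 CPM; adjusted p = 1.89e-06). The fitted changes of Tdgf1 itself were -0.85 and -2.48, and the difference between the genes was not tested. On the other side, Prss50, Tmie and Als2cl did not pass in either genotype, and Prss45 rose in TKO from under 1 CPM. Prss45 lost that call with DESeq2 (adjusted p = 0.0808) and without TKO DMSO replicate 1 (adjusted p = 0.0932).

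Near Gdf3, which fell, Dppa3 (Stella), a germ cell and pluripotency gene, rose by 1.50 in wild type (adjusted p = 0.000482) and by 2.04 in TKO (adjusted p = 3.88e-05). Mfap5 rose by 0.94 and 1.67. The pluripotency factor gene Nanog fell by 0.42 in wild type (adjusted p = 0.0127) and had -0.27 in TKO (adjusted p = 0.071), and Apobec1 did not pass. The wild type call of Mfap5 ended without wild type DMSO replicate 1 (adjusted p = 0.142) or wild type TSA replicate 2 (adjusted p = 0.107). The call of Nanog ended with scaling by total counts (adjusted p = 0.163) or the upper quartile (adjusted p = 0.0939), without wild type DMSO replicate 2 (adjusted p = 0.0648) and without wild type TSA replicate 1 (adjusted p = 0.0568). Near Nodal, Pald1 fell by 0.72 and 1.13, Lrrc20 rose by 1.15 and 1.29 and Eif4ebp2 did not pass. Near Cer1, Frem1 rose by 1.85 and 1.25 and Zdhhc21 did not pass. Lrrc20 lost its calls without wild type TSA replicate 1 (adjusted p = 0.0689) and TKO DMSO replicate 1 (adjusted p = 0.0535), and Frem1 its TKO call without TKO DMSO replicate 1 (adjusted p = 0.0922) or TKO TSA replicate 2 (adjusted p = 0.0897).

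**Figure D4:**
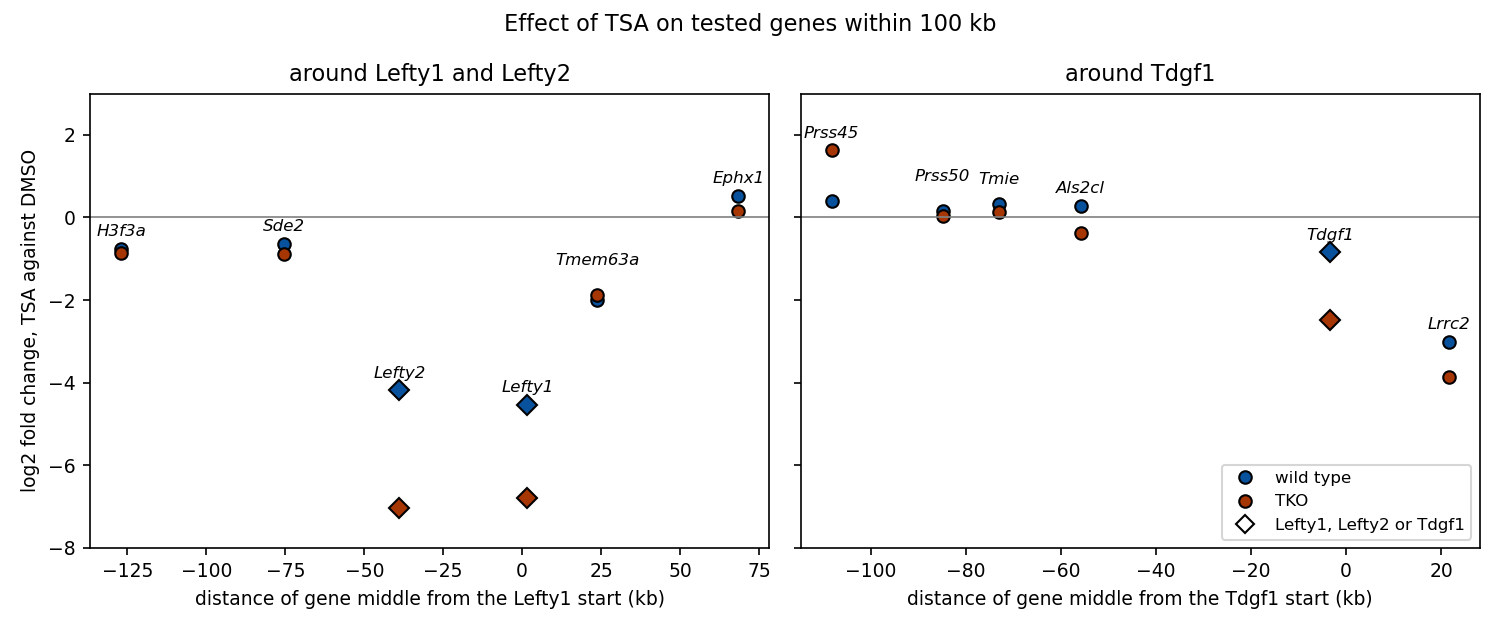
Log2 fold change with TSA for tested genes within 100 kb of Lefty1 and Lefty2 (left) and of Tdgf1 (right), against the distance of the gene's middle from the named start, in kb along the chromosome. Circles are neighbours and diamonds the named genes, blue for wild type and red for TKO. Tmem63a lies between the Lefty genes and 0, and Lrrc2 lies below Tdgf1.

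Over the 8 libraries, which fall into 4 groups and share their scaling, the log2 levels of Lefty1 and Lefty2 had a Pearson r of 0.991, Gdf3 and Lefty1 of 0.988, and Tdgf1 and Lefty1 of 0.918, whereas Nodal had -0.45 to -0.54 with the other 4. These libraries include the TKO libraries in which Lefty1 and Lefty2 were picked, so the r values are a description only. The 3 genes named below for Lefty1 each had a higher r with it than Lefty2 did. The 3 genes most like each member, among 12420 with a group mean of at least 5 CPM, were found by r of log2(CPM + 1). For Lefty1 they were Qtrt1 (0.998), Stmn2 (0.997) and Smarcb1 (0.996), and for Lefty2 Ppie (0.997), Zfp57 (0.997) and Nudt16l1 (0.996). For Gdf3 they were Eif4e2 (0.999), Ngdn (0.999) and Rbm19 (0.998), for Tdgf1 Capza1 (0.998), Pnma2 (0.992) and Map4k1 (0.990), and for Nodal Pex26 (0.937), Fan1 (0.933) and Lamtor2 (0.931). The genes named for Lefty1 and Lefty2 were all replaced by others with a pseudocount of 5. The measure compares shape, not size: the mean of Smarcb1 went from 115 to 58.2 CPM with TSA in wild type and from 109 to 45.3 in TKO, far smaller changes than those of Lefty1.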

How the data were processed

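RNA was ribosomal RNA depleted and sequenced as strand-marked paired ends, per the labels' protocols. The authors deposited 1 table of raw counts per gene for the 8 libraries with each gene's exon coordinates and length. The submitters' processing notes name TopHat2 2.0.13, featureCounts 1.4.5-p1, edgeR 3.22.3 and mm10, without role or order. Whether counting used strand is not given in the sources used here. Of the gene rows, 4 carry 2 names that read as dates.

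From the counts, edgeR 4.0.16 (R 4.3.3, limma 3.58.1) was run with TMM scaling and filterByExpr, which kept 15822 genes. The quasi-likelihood fit had a mean for each of the 4 groups over all 8 libraries (4 residual degrees of freedom, common biological coefficient of variation 10.3%). Tests were two-sided, with Benjamini-Hochberg adjustment over all tested genes and a threshold of 0.05. Levels are TMM-normalised CPM, given as mean ± SD over libraries, and per kilobase of deposited exon length where genes are compared. The step was tested on simulated data. No replicate pair agreed within sampling noise (chi-square per degree of freedom 4.54 to 10.3). The series' text calls replicates biological without naming their source, so p-values cover the spread between these libraries.

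The genes and lists were chosen with earlier results of these data known. Pathway genes are named if they passed with a log2 change of at least 1 and a mean of at least 1 CPM in a compared group (at most 5 in each direction), together with a fixed set of Smads, receptors, convertases and targets. Tested neighbours within 100 kb and the 3 genes of highest r are named as well. A few genes of these lists count in the totals and are otherwise not reported here. Alternatives were other scalings, DESeq2 1.42.0, no filter, the replicate number as a block, fewer libraries, each library left out, Lefty1 and Lefty2 summed, a 250 kb window and a pseudocount of 5. Those for neighbouring genes, the window apart, were chosen after seeing the data. Promoter windows come from RefSeq. The other 118 samples are not analysed here.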

Additional observations from a re-analysis of the deposited data

Results flagged for a closer look

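The response of Eomes to TSA differed between genotypes by the test of the difference itself: the log2 effect was 2.79 more in TKO than in wild type (SE 0.34, adjusted p = 0.00533, edgeR). Its mean went from 7.83 to 5.53 CPM with TSA in wild type and from 2.62 to 12.8 CPM in TKO, and both TKO TSA libraries were above both TKO DMSO libraries. Over the alternatives the difference was 2.48 to 3.04 (adjusted p = 3.39e-07 to 0.0436). Eomes is on the list of epiblast or primitive streak markers, whose summed level was 73.0 to 90.3 CPM in TKO DMSO and 65.1 to 78.5 in TKO TSA. The part of that list in the difference was not tested.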

How the results depend on the processing

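Over 380 alternative values for the 5 tested members, 360 kept their direction and also the call or, where there was no test, moved by less than the replicate spread. Scaling by total counts moved the median of all genes to 0.22 (wild type) and 0.19 (TKO) for the TSA effects, and the upper quartile to 0.16 and 0.11. All-gene calls were 4266 higher and 4092 lower in wild type and 4872 and 4412 in TKO, against 5809 and 2437, and 5904 and 3268, with total counts, and 5365 and 2794, and 5337 and 3787, with the upper quartile. Directions near 0 turned: Smad4 in wild type was 0.070 (total counts) and 0.016 (upper quartile) and in TKO 0.044 (total counts). Nodal with TSA in TKO was -0.0091 without the filter. The causes were not tested.

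For TKO against wild type in DMSO, the number of members called went from 0 to 1 without the filter and with only the libraries of the contrast, and was 0 to 1 with libraries left out. The gene is Lefty2, whose TKO DMSO values helped to choose it, so nothing is read from this. For TKO against wild type in TSA, the members' median of -1.62 was -1.03 with Lefty1 and Lefty2 summed, which leaves fewer genes, and -2.09 to -0.76 with libraries left out. The pathway count there, 15, was 5 to 15. For the difference in response, the pathway count of 1 was 2 with DESeq2, 3 without the filter and 1 to 2 with libraries left out, and 213 genes in all became 401 with DESeq2 and 488 without the filter. The neighbour counts of 12 were 20 in wild type and 21 in TKO within 250 kb, a window with more genes tested, and the 5 called in DMSO and the 5 in TSA were 2 to 5 with libraries left out. With a pseudocount of 5, 9 of the 15 genes of like pattern were shared. These were the genes named for Gdf3, Tdgf1 and Nodal, and none of those named for Lefty1 or Lefty2 was kept.

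With libraries left out, values ranged from -0.18 to 0.20 for Nodal with TSA in TKO, -0.28 to 0.10 for Nodal in TKO against wild type in TSA, -0.047 to 0.32 for Gdf3, -0.14 to 0.17 for Tdgf1 and -0.012 to 0.21 for Lefty1 in TKO against wild type in DMSO, and reached -0.015 for Smad3 in wild type. Lefty1 with TSA in TKO ranged from -7.97 to -6.12. A fit with 1 library in a group assumes that it varies like the others.

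No label says that a replicate number marks a shared culture or day, and deviations of same-numbered libraries had r of 0.0485 to 0.389 over the 6 pairs of groups, so the fit without the block is the one reported. With the replicate block, TSA moved 24 pathway genes in wild type and 29 in TKO (20 and 25 without), and 3 for the difference in response (1 without), where all-gene calls went from 213 to 633. With it Skil and Pmepa1 passed in wild type (adjusted p = 0.0350 for each) and Furin in TKO (adjusted p = 0.0392). The block changed no member's call.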
